A study of Mus musculus with 12 samples.

Results

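Mmp14, Mmp2 and Timp2 were followed array by array in mouse immortalized tumor-initiating cells, cells of a breast cancer study, as they left hypoxic culture for ordinary culture. All probes that the platform annotation assigns to the 3 genes were taken. These were 4 of the 45281 probes on the array, for 3 of the 19057 named genes, with 2 for Mmp14 and 1 each for Mmp2 and Timp2. Of the 4, 3 were detected on all 12 arrays, and 1 of the Mmp14 probes was detected on 0 of 12. After transfer, the Mmp14 and Timp2 signals fell and the Mmp2 signal rose. By day 7 Mmp14 was 2.79-fold lower, Timp2 1.67-fold lower and Mmp2 2.19-fold higher than in hypoxic cells (limma, 3 arrays against 3).

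Mmp14 (also called MT1-MMP) is a metalloprotease anchored in the plasma membrane that cleaves fibrillar collagen and other matrix and surface proteins. It is also the main activator of proMmp2, the latent form of a secreted metalloprotease that digests basement membrane collagen. Timp2, a secreted inhibitor, has a dual part in that step: bound to an Mmp14 molecule it captures proMmp2 so that a neighbouring free Mmp14 can cut it, while in excess it blocks Mmp14. In breast tumours the axis is known for its place in invasion through basement membrane and collagen, where Mmp2 is often made by stromal cells.

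The study compared 2 culture states. Hypoxic stem cell conditions were a serum-free mammary stem cell medium on an MEBM base with 2% Cultrex, a basement membrane extract, under 3% oxygen, with 3 arrays. Normoxic standard conditions were a DMEM-based medium under 21% oxygen, with 1 array for each of days 1 to 6 and 3 arrays for day 7. All groups were the same kind of immortalized cells. The labels do not state how the cells were derived, whether they were 1 clone or whether replicates were separate cultures. The p-values therefore cover array-to-array spread, which may be technical. Oxygen and medium changed at the same step, and the labels give Cultrex for hypoxic culture only, so these cannot be told apart. Nor, in bulk RNA, can fewer cells that express a gene be told from less RNA per cell.

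The promoters of the members are shown because hypoxia-inducible and Sp1-type factors are known regulators of genes on this axis, and the sequences carry the motifs searched. RefSeq promoter windows of assembly GRCm38.p6, from 250 bases before to 50 bases after the gene start, matched 2 of the 3 members. Mmp14 lies at chr14:54431598-54442456 on the plus strand, Mmp2 at chr8:92827290-92853421, and Timp2 at chr11:118301061-118355411 on the minus strand. The windows shown are chr14:54431348-54431647 (plus strand) and chr11:118355362-118355661 (minus strand), each written 5′ to 3′ along its gene. Capitals mark matches on either strand to the GC box GGGCGG and to the hypoxia response element core, ACGTG or GCGTG. The capital CACGT in the Mmp14 window is ACGTG on the other strand.
Mmp14 promoter: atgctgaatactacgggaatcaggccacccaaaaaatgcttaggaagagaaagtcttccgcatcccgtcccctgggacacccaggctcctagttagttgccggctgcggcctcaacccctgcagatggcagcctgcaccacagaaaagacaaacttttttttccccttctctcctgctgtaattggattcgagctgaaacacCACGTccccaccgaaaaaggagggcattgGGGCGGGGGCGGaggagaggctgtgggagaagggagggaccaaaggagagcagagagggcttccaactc
Timp2 promoter: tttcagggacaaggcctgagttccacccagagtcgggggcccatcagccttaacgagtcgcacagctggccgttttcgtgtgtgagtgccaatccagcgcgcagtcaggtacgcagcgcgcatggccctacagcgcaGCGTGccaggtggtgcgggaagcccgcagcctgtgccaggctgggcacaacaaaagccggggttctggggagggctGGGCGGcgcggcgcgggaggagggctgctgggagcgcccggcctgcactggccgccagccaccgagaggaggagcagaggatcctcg

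The Mmp14 window held 2 GC boxes, starting 19 and 13 bases before the gene start, and 1 hypoxia response element core, starting 48 bases before it. The GC boxes lie side by side without overlap. The Timp2 window held 1 GC box, starting 37 bases before the gene start, and 1 core, starting 113 bases before it. GC content was 56.0% for Mmp14 and 68.7% for Timp2. These letters are common: of 32851 promoter windows of the same length, 35.7% held a GC box, 19.5% held at least 2, and 43.8% held a core. A match is a description of the letters and not a bound site.

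Between 34.3% and 37.7% of probes were detected per array. Correlations between arrays of a group ran from 0.87 to 0.89 for hypoxic cells and from 0.54 to 0.66 for day 7, as deviations from the mean of all arrays. That mean is taken over 3 hypoxic and 9 normoxic arrays, so the 2 ranges are not a like measure of replicate spread. The deposited tables keep 2 sets of 6 arrays together. Set a is hypoxic replicate 3, days 4, 5 and 6, and day 7 replicates 2 and 3, and set b is the other 6. No label states these sets or what they were. The deposited tables disagree on sample names: in the authors' processed value table, 1 of the 6 signal columns held the array that the signal table gives the same name. Names of the signal table were used. Under them, 11 measured genes of the hypoxia response averaged 11.37 to 11.60 (log2) on the 3 hypoxic arrays and 9.57 to 9.96 on the 9 normoxic arrays. The array named hypoxic replicate 1 in the processed table is the day 6 array here, where that average was 9.70. The arrays it names day 2 and day 5 are day 7 replicate 3 and day 4 here. Those it names day 7 replicates 1 and 2 are day 7 replicate 2 and day 5 here. The hypoxia average does not tell the normoxic days apart, so the order of days rests on the names of the signal table.

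Mmp14, the activating protease, was read by probe ILMN_1240726. Its normalized log2 signal was 13.12, 13 and 13.05 on the hypoxic arrays. It was 12.21, 11.79 and 11.99 on days 1, 2 and 3, then 11.97, 11.95 and 11.58 on days 4, 5 and 6, and 11.62, 11.42 and 11.69 on the day 7 arrays. Every normoxic array lay below every hypoxic array, a separation in this direction that 20% of all kept probes shared. The group mean was 13.06 ± 0.06 (SD, n = 3) in hypoxic cells and 11.58 ± 0.14 (SD, n = 3) on day 7, a change of −1.48 ± 0.13 (SE, log2; limma adjusted p = 0.000114). At that contrast 55.4% of kept probes passed the threshold, 30.1% as lower and 25.3% as higher, and 34.3% had every day 7 array below every hypoxic array. Higher probes made up 45.7% of those that passed, but 33.3% with arrays scaled to a common median and 55.5% with a common median of probes detected on all arrays, which moved the median change of all kept probes from −0.07 to −0.26 and 0.13. Under those scalings Mmp14 changed by −1.42 and −1.03. Among all kept probes the size of the Mmp14 change stood at percentile 87.

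The Mmp14 fall was present in the earliest normoxic arrays. The mean of days 1 to 3 was 12 and lay below hypoxic cells by 2.08-fold (log2 change −1.06, limma adjusted p = 0.000532). Here 50.7% of kept probes passed, 25.9% as lower and 24.8% as higher. For days 4 to 6 the mean was 11.83 and the change against the same hypoxic arrays was −1.22 (limma adjusted p = 0.000313), with 50.6% of kept probes passing, 26.2% as lower and 24.5% as higher. The gap between hypoxic cells and day 1, the highest of the normoxic days, was 0.85 and exceeded 2 SE of that gap (0.38). All other neighbours in the order of levels (day 1, day 3, day 4, day 5, day 2, day 6, day 7) were closer to each other than 2 SE. The further differences of −0.17 between days 4 to 6 and days 1 to 3 and of −0.26 between day 7 and days 4 to 6 did not pass (limma adjusted p = 0.447 and 0.259).

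The other Mmp14 probe, ILMN_1225091, had detection p-values of 0.06517 to 0.8622 and normalized signals of 4.58 to 5.29. It was not above background on any array and was not tested. Its means were 4.71 ± 0.08 (SD, n = 3) in hypoxic cells and 4.86 ± 0.22 (SD, n = 3) on day 7, so the Mmp14 result rests on a single probe, as do those of Mmp2 and Timp2.

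Mmp2, the secreted protease that Mmp14 activates, was read by probe ILMN_2678218. Its log2 signal was 8.73, 8.83 and 9.16 on the hypoxic arrays. It was 8.88, 8.79 and 9.81 on days 1, 2 and 3, reached 10.43, 10.81 and 9.65 on days 4, 5 and 6, and was 10.16, 9.99 and 9.97 on the day 7 arrays. Days 1 and 2 lay within the hypoxic range, and all arrays from day 3 on lay above it. Mmp2 thus did not separate over all 9 normoxic arrays, as 17.5% of kept probes did in the higher direction. The group mean was 8.91 ± 0.23 (SD, n = 3) in hypoxic cells and 10.04 ± 0.11 (SD, n = 3) on day 7, a rise of 1.13 ± 0.16 (SE, log2; limma adjusted p = 0.000742). The 3 day 7 arrays stood above the 3 hypoxic arrays, as did those of 28.5% of kept probes, and the size of the change stood at percentile 76.9.

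Mmp2 passed the threshold against hypoxic cells on days 4 to 6 and not on days 1 to 3. For days 1 to 3 the difference from hypoxic cells was 0.25 (mean 9.16, limma adjusted p = 0.223), and it was −0.07 without day 3. For days 4 to 6 the mean was 10.30 and the rise 1.39, or 2.62-fold (limma adjusted p = 0.000373). Days 4 to 6 stood above days 1 to 3 by 1.14, or 2.20-fold (limma adjusted p = 0.00869), where 10.7% of kept probes passed, 5.52% as higher and 5.19% as lower, and the size stood at percentile 97.5. All of days 1 to 3 belong to set b and all of days 4 to 6 to set a. With the set as a block the difference was 1.04 (adjusted p = 0.144). Ordered by level, day 5, day 4, day 7, day 3 and day 6 were followed by hypoxic cells, day 1 and day 2, and the gap between day 6 and hypoxic cells (0.75) was the one beyond 2 SE (0.45). Day 7 did not differ past the threshold from days 4 to 6 (−0.26, limma adjusted p = 0.329), a contrast where 6.02% of kept probes passed, 4.03% as higher and 1.99% as lower. Of the probes that passed there 66.9% were higher, a share that was 17.2% and 81.7% under the common-median scalings and 53.9% without background correction.

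Timp2, the inhibitor that also bridges Mmp14 and proMmp2, was read by probe ILMN_2712867. Its log2 signal was 12.86, 12.68 and 12.74 on the hypoxic arrays. It was 12.75, 12.23 and 12.26 on days 1, 2 and 3, then 11.86, 12.20 and 12.04 on days 4, 5 and 6, and 12.02, 11.88 and 12.15 on the day 7 arrays. Day 1 lay within the hypoxic range, and every later array lay below it. The group mean was 12.76 ± 0.09 (SD, n = 3) in hypoxic cells and 12.02 ± 0.13 (SD, n = 3) on day 7, a fall of −0.74 ± 0.13 (SE, log2; limma adjusted p = 0.00259). The size of that change stood at percentile 58.3 of all kept probes, near the middle. It was −0.27 (adjusted p = 0.136) when arrays were scaled to a common median of the probes detected on all arrays, where the median change of all kept probes was 0.13.

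Timp2 differed from hypoxic cells by −0.35 on days 1 to 3, a difference that did not pass (mean 12.42, limma adjusted p = 0.0667), although −0.34 passed without background correction (adjusted p = 0.0226). Leaving out day 1 gave −0.51 (adjusted p = 0.0257). On days 4 to 6 the mean was 12.03, a fall of −0.73 (limma adjusted p = 0.00337). The levels were ordered hypoxic, day 1, day 3, day 2, day 5, day 6, day 7 and day 4, and the gap between day 1 and day 3 (0.49) was the one beyond 2 SE (0.47). Neither days 4 to 6 against days 1 to 3 (−0.38, limma adjusted p = 0.11) nor day 7 against days 4 to 6 (−0.01, limma adjusted p = 0.959) passed.

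**Figure D1:**
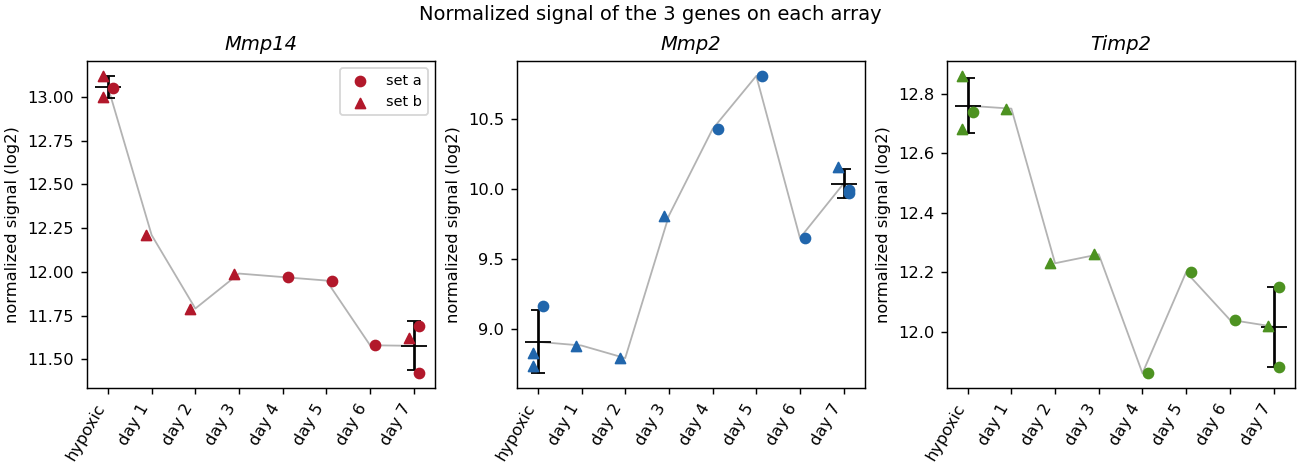
Normalized log2 signal (y axis, a separate range per gene) of Mmp14, Mmp2 and Timp2 on each of the 12 arrays by culture state and day (x axis). Circles are arrays of set a and triangles arrays of set b, the grey line joins group means, and black bars are mean ± SD of the hypoxic and day 7 triplicates. Mmp14 was below its hypoxic values from day 1 (12.21), Timp2 from day 2 (12.23), and Mmp2 was above its hypoxic values from day 3 (9.81).

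The day 7 changes were also read within each set. Within set a, with 1 hypoxic and 2 day 7 arrays, the lone array being taken to vary like the others, Mmp14 changed by −1.5 (limma adjusted p = 0.0403), Mmp2 by 0.82 (adjusted p = 0.0873) and Timp2 by −0.73 (adjusted p = 0.13). Within set b, with 2 hypoxic arrays and 1 day 7 array, the changes were −1.44 (limma adjusted p = 0.00229), 1.38 (adjusted p = 0.00278) and −0.75 (adjusted p = 0.0492). Each gene thus kept its direction in both sets. On days 4 to 6 within set a the changes were −1.22, 1.13 and −0.71, none past the threshold (limma adjusted p = 0.0556, 0.0531 and 0.134). Under the sample names of the processed value table, in which the hypoxic pair includes the day 6 array, the changes were −0.63 for Mmp14, 0.99 for Mmp2 and −0.35 for Timp2, none of which passed (limma adjusted p = 0.998 for each).

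**Figure D2:**
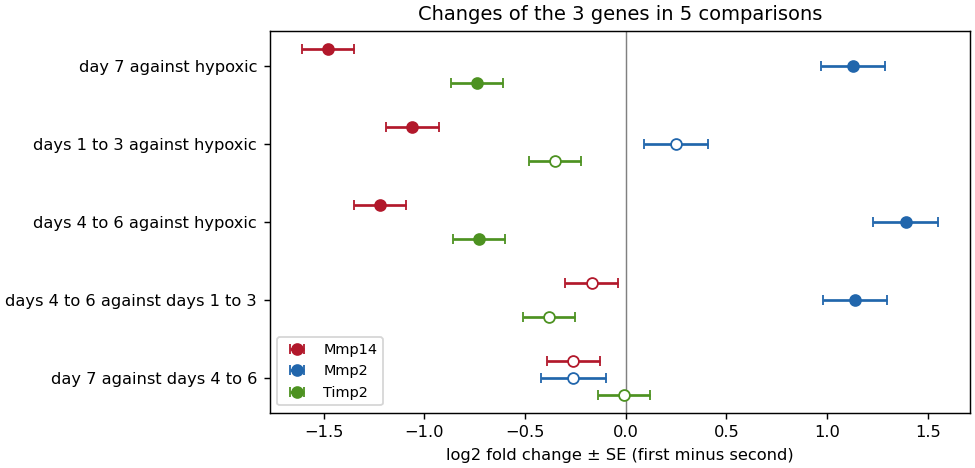
Log2 fold change ± SE from limma (x axis, first group minus second) of the 3 genes in 5 comparisons (y axis). Filled points passed an adjusted p of 0.05 and open points did not. Against hypoxic cells, Mmp14 lay between −1.48 and −1.06 in all 3 comparisons, which share the hypoxic arrays, while Mmp2 lay at 0.25 on days 1 to 3 and at 1.39 on days 4 to 6.

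How the genes moved against each other was read as the difference of the log2 signals of a pair on the same array, set to 0 at the hypoxic mean. A shift common to a whole array cancels in this measure, but one that varies with signal level does not. The Mmp14 to Timp2 difference, protease against inhibitor, was −0.04, 0.02 and 0.02 on the hypoxic arrays. It was −0.84, −0.73 and −0.56 on days 1 to 3, −0.19, −0.54 and −0.76 on days 4 to 6, and −0.70, −0.76 and −0.75 on day 7. All 9 normoxic arrays lay below all 3 hypoxic arrays, with day 4 nearest to them. Mmp14 thus fell further than Timp2, by −0.65 on average over the normoxic arrays, or 1.57-fold (exact two-sided permutation test, p = 0.00455, the smallest that 220 arrangements can give). At day 7 the change was −0.74, with an SD of 0.03 in either group (n = 3 each; exact permutation p = 0.1, the smallest that 3 arrays against 3 allow).

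The Mmp2 to Timp2 difference moved the other way. It was −0.28, 0 and 0.27 on the hypoxic arrays, −0.02, 0.41 and 1.40 on days 1 to 3, 2.42, 2.46 and 1.47 on days 4 to 6, and 1.99, 1.96 and 1.67 on day 7. Day 1 lay within the hypoxic range and all later arrays above it. The mean change was 1.53 over the normoxic arrays (exact two-sided permutation p = 0.0136) and 1.87 at day 7, or 3.67-fold (exact permutation p = 0.1). Without hypoxic replicate 1 the normoxic change was 1.39 (exact permutation p = 0.0727).

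The Mmp14 to Mmp2 difference, activator against its substrate protease, was 0.24, 0.02 and −0.26 on the hypoxic arrays. It was −0.82, −1.15 and −1.96 on days 1 to 3, −2.61, −3.01 and −2.22 on days 4 to 6, and −2.69, −2.72 and −2.43 on day 7. No normoxic array overlapped the hypoxic arrays, and the difference was widest on day 5. The mean change was −2.18 over the normoxic arrays, or 4.53-fold (exact two-sided permutation p = 0.00455), and −2.61 at day 7, or 6.11-fold (exact permutation p = 0.1). The 3 pairs share genes and the normoxic arrays are of 7 different days, so these 6 tests are not independent and the days are not replicates. Over the alternatives tried, the day 7 change of Mmp2 to Timp2 ran from 1.46 to 2.01. That of Mmp14 to Mmp2 ran from −2.74 to −2.22, and that of Mmp14 to Timp2 from −0.76 to −0.72.

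**Figure D3:**
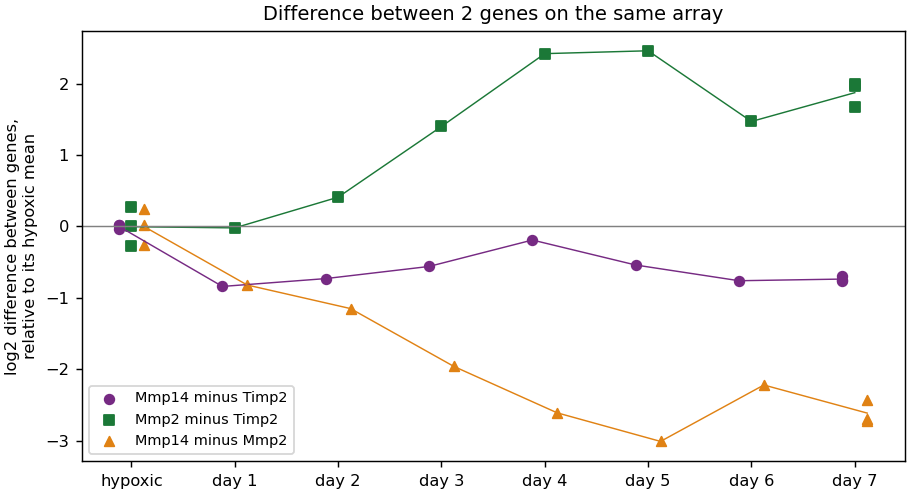
Difference of log2 signals between 2 genes on the same array, relative to its mean on the hypoxic arrays (y axis), by culture state and day (x axis). Points are arrays and lines join means. The Mmp14 to Mmp2 difference ran down to −3.01 on day 5, the Mmp2 to Timp2 difference up to 2.46 on the same day, and the Mmp14 to Timp2 difference stayed between −0.84 and −0.19 on all normoxic arrays.

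Other genes of the pathway were read from lists chosen with earlier results of these data known, and are given as counts at day 7 against hypoxic cells beside the 25.3% of kept probes that rose and 30.1% that fell. The median change of all kept probes was −0.07. Among the other membrane-type metalloproteases, relatives that could share work with Mmp14, 1 of 5 was measured. This was Mmp24, with 9.84 ± 0.14 in hypoxic cells and 10.09 ± 0.11 on day 7 (SD, n = 3 each), a difference of 0.25 that did not pass (limma adjusted p = 0.159) and was −0.06 with arrays scaled to a common median.

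Of the other metalloprotease inhibitors, 3 of 4 were measured, of which 1 rose, 1 fell and 1 did not pass. Timp1, a secreted inhibitor that does not serve as the bridge for proMmp2 and inhibits Mmp14 poorly, rose from 9.25 ± 0.25 to 13.57 ± 0.21 (SD, n = 3 each). This change of 4.32 ± 0.18 (SE, log2; limma adjusted p = 1.43e-05) opposed that of Timp2, a second probe gave 4.33, and the value was already 4.42 on days 1 to 3. Timp3, a matrix-bound inhibitor of both proteases, fell by 1.04 from 14.01 ± 0.01 (SD, n = 3; limma adjusted p = 0.000428). Its other probes gave 0.35 and −0.48 and did not pass (limma adjusted p = 0.212 and 0.0669). Reck, a membrane-anchored inhibitor, differed by −0.05 (limma adjusted p = 0.877).

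Proprotein convertases remove the propeptide of Mmp14 inside the cell. Of 4 on the list 3 were measured, of which 0 rose and 2 fell, with a median of −1.20. Pcsk6 (PACE4) fell from 11.15 ± 0.07 to 8.32 ± 0.19 (SD, n = 3 each; −2.83 ± 0.15 SE, limma adjusted p = 1.92e-05). Furin, the convertase best known for this cut, fell from 11.82 ± 0.04 to 10.62 ± 0.07 (SD, n = 3 each; −1.20 ± 0.12 SE, limma adjusted p = 0.000184), and its other probe gave −0.69 (adjusted p = 0.087). Both were already lower on days 1 to 3, Pcsk6 by −1.28 and Furin by −0.36 (limma adjusted p = 0.000329 and 0.0398).

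Among genes for proteins that bind, present or take up Mmp2 or its activator, 11 of 14 were measured, of which 5 rose, 2 fell and 4 did not pass, with a median of 0.45. Thbs2, a matricellular protein that carries Mmp2 to uptake by Lrp1, rose by 3.88 ± 0.16 (SE, log2; limma adjusted p = 1.43e-05) from 5.08, where 1 of 3 hypoxic arrays detected it. Lrp1 itself, named after its values were seen, changed by −0.86 (limma adjusted p = 0.0234). Tspan12, a tetraspanin that associates with Mmp14, rose from 6.44 ± 0.43 to 8.47 ± 0.12 (SD, n = 3 each; limma adjusted p = 0.00026). Cd44, a hyaluronan receptor that docks Mmp14 at the leading edge of cells and is cut by it, rose by 1.01 (limma adjusted p = 0.000855), and by 2.08 on days 1 to 3. Cav1, the caveolar coat protein involved in Mmp14 uptake, fell by 1.19 from 12.71 ± 0.09 (SD, n = 3; limma adjusted p = 0.00029).

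Of the genes for partners of the Mmp14 cytoplasmic tail and for its traffic, 14 of 15 were measured, of which 1 rose, 8 fell and 5 did not pass, with a median of −0.44. With a common median of probes detected on all arrays 5 fell, and with the mean of a gene's probes 6 fell, each with a median of −0.19. Rab7, a late endosome GTPase named after its values were seen, is counted as fallen at −0.55 (limma adjusted p = 0.00771), but another of its probes read 0.64 (adjusted p = 0.0413). Hif1an (FIH-1), an oxygen-dependent asparaginyl hydroxylase that restrains hypoxia-inducible factors and that the Mmp14 tail can hold, fell from 7.95 ± 0.20 to 6.48 ± 0.22 (SD, n = 3 each; limma adjusted p = 0.000333). Wasl, an actin nucleation factor of invadopodia, fell by 1.25 (limma adjusted p = 0.000271). Vamp7, a vesicle fusion protein that delivers Mmp14 to invadopodia, rose by 1.5 (limma adjusted p = 0.00024), and its difference on days 1 to 3 was −0.07 (adjusted p = 0.735).

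Among matrix and surface substrates of Mmp14 and Mmp2, 13 of 15 were measured, of which 7 rose, 4 fell and 2 did not pass, with a median of 0.45. The balance turned with the filter: of the 9 detected on all 12 arrays, 4 rose and 5 fell, with a median of −0.60. With a common median 5 rose and 5 fell, with a median of 0.15. Col1a1, a chain of fibrillar collagen I, was not well above background on any hypoxic array and averaged 8.57 on day 7, at least 9.22-fold higher (limma adjusted p = 1.43e-05). Such bounds set the lowest signal among detected probes in place of the undetected mean. Col3a1, of collagen III, was likewise not well above background on the hypoxic arrays and was at least 3.76-fold higher on day 7 (limma adjusted p = 0.000232), whereas its other probe gave −0.44 (adjusted p = 0.29). Col1a2, the second chain of collagen I, rose by 1.24 (limma adjusted p = 0.00557) and was detected on 1 of 3 hypoxic arrays.

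Dcn, the proteoglycan decorin, rose from 6.63 ± 0.30 to 10.40 ± 0.11 (SD, n = 3 each; limma adjusted p = 1.7e-05), and its second probe gave 3.48. The Dcn change was 0.00 on days 1 to 3 and 3.57 on days 4 to 6 (limma adjusted p = 0.995 and 2.1e-05), so, like Mmp2, it was called in the later days and not in the early ones. Tnc, the matrix glycoprotein tenascin C, rose by 1.66 at day 7 and by 2.05 on days 1 to 3 (limma adjusted p = 0.000188 and 8.19e-05). Its other probes gave 1.53 and 0.70 at day 7, the latter without passing (limma adjusted p = 0.000247 and 0.0662). Lamb3, a laminin chain of epithelial basement membranes, fell from 12.32 ± 0.04 to 9.48 ± 0.22 (SD, n = 3 each; limma adjusted p = 2.07e-05).

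Of the transcriptional and signalling regulators described for the 3 genes, 13 of 14 were measured, of which 3 rose, 5 fell and 5 did not pass by the brightest probe of each, with a median of −0.16. The 3 that rose include Arnt, whose probes disagreed. With arrays scaled to a common median 2 rose and 7 fell, with a median of −0.55. Snai1, a repressor of epithelial genes that is reported to raise Mmp14, rose from 5.47 ± 0.13 to 8.40 ± 0.12 (SD, n = 3 each; limma adjusted p = 1.7e-05), but its other probe gave 0.23 (adjusted p = 0.405). Snai2, its relative, fell by 1.28 (limma adjusted p = 0.00156). Sp1, which binds GC boxes, fell by 1.18 (limma adjusted p = 0.0013), and its other probe gave −0.53 (adjusted p = 0.136). Arnt, the partner subunit of hypoxia-inducible factors, read 2.32 by its brightest probe (limma adjusted p = 0.000571) and −0.75 by another (limma adjusted p = 0.00142), so its place among those that rose rests on the choice of probe.

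**Figure D4:**
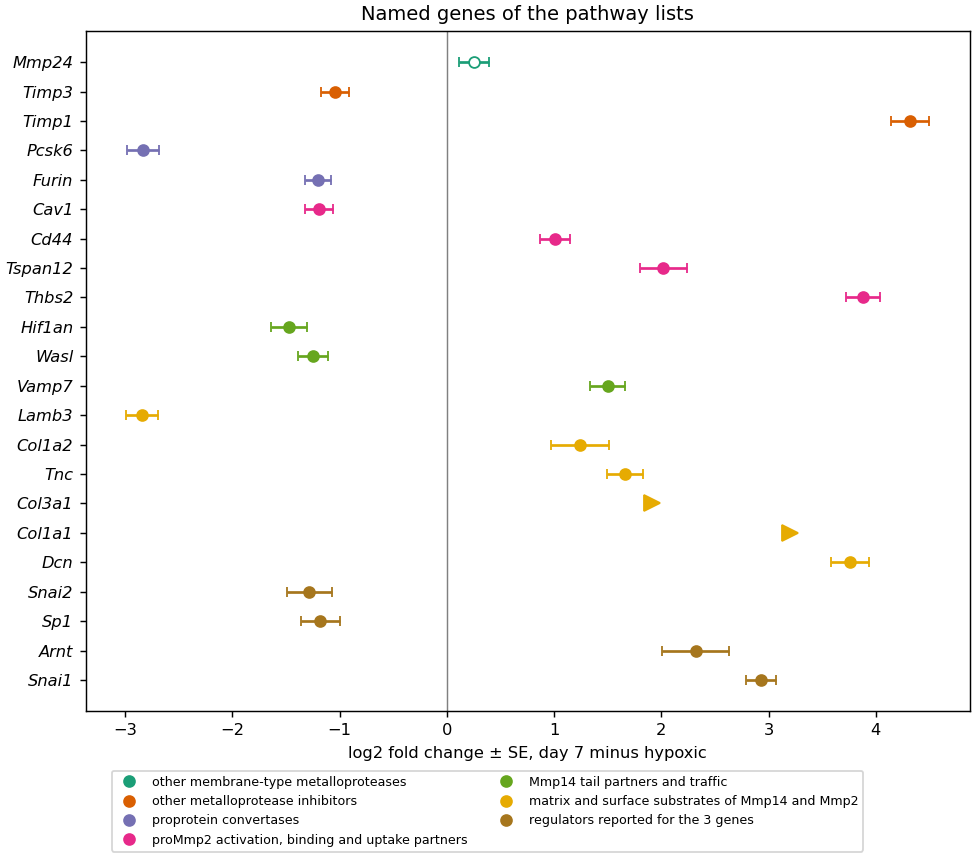
Log2 fold change ± SE from limma, day 7 minus hypoxic (x axis), of the 22 named genes of the pathway lists (y axis), coloured by list. Filled circles passed an adjusted p of 0.05 and the open circle did not, and triangles mark the lower bounds of Col1a1 and Col3a1, which were not well above background on hypoxic arrays. Timp1 (4.32), Thbs2 (3.88) and Dcn (3.76) lay farthest to the right, and Lamb3 (−2.84) and Pcsk6 (−2.83) farthest to the left.

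Cell type markers were counted in the same way. At day 7, 25.3% of all kept probes rose and 30.1% fell. On days 1 to 3 these shares were 24.8% and 25.9%. Of 9 markers of mammary epithelium 8 were measured, all detected on every hypoxic and day 7 array, of which 0 rose and 5 fell at day 7. Their summed level was 15.35 to 15.48 (log2) in hypoxic cells, 15.27 to 15.78 on days 1 to 6 and 14.80 to 14.83 on day 7. On days 1 to 3, 1 epithelial marker rose and 2 fell, with a median of 0. Of 10 fibroblast markers 6 were measured, of which 5 rose and 1 fell at day 7, with a summed level of 8.68 to 9.01 in hypoxic cells, 8.96 to 11.59 on days 1 to 6 and 11.01 to 11.18 on day 7. On days 1 to 3, 3 fibroblast markers rose and 1 fell, with a median of 0.9. At day 7 the rising fibroblast markers were Col1a1, Col1a2, Col3a1 and Dcn, which the substrate list also holds, and Pdgfrb. Pdgfrb was detected on 0 of 3 hypoxic and 1 of 3 day 7 arrays. Pdgfra was the marker that fell, with −0.44 at day 7 and −1.42 on days 1 to 3 (limma adjusted p = 0.0277 and 0.000165). Fap, Lum, Postn and Thy1 were not measured on enough arrays. Of 10 macrophage markers 3 were measured and 1 rose, of 9 endothelial markers 4 were measured with 2 rising and 1 falling, and of 9 lymphocyte markers 1 was measured and did not pass. Egfl7, counted among the rising endothelial markers, read 1.62 by its brightest probe. Its other probes gave 0.33 and 0.19 and did not pass (limma adjusted p = 0.375 and 0.527). The part of the epithelial and fibroblast differences in the results for Mmp14, Mmp2 and Timp2 was not tested.

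Of 7462 genes detected on all 12 arrays, the patterns most like those of the 3 members were ranked by the root-mean-square difference of centred log2 signals over the 12 arrays. The 5 nearest to Mmp14 were Ifi213, Plcb3, Efcab14, Plpp6 and Fam117b, at 0.12 to 0.13, against a median of 1.11 for all genes. Those nearest to Mmp2 were Slc39a4, Idh1, Serping1, Armcx2 and Fads2, at 0.28 to 0.36 against a median of 1.11, farther off than the 5 nearest to Mmp14. Those nearest to Timp2 were Tsc2, Sgpp1, Slc6a6, Rbm5 and Pias1, at 0.11 to 0.16 against 0.72.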

How the data were processed

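RNA from 12 samples was hybridised to 1-colour Illumina bead arrays (Mouse WG-6 v2.0). Per probe and array, the deposited table gives log2 signals and detection p-values, and the log2 signals were taken, from the values, as neither background-corrected nor normalized (medians 6.738 to 6.943). The labels name no software for this step. Detection p-values as deposited did not belong to the signals printed beside them (16884 to 18174 order inversions), and each signal column was matched to the p-value column with 0 inversions. Groups and replicates follow the sample titles. Signals were put on a linear scale for neqc (limma 3.58.1, R 4.3.3, offset 16), which takes log2 after quantile normalization, so fold changes of dim probes are understated. Probes with a detection p below 0.05 on at least 3 of 12 arrays were kept (18561). A limma model with 8 group means and eBayes was fitted to all of them, with 4 residual degrees of freedom from the triplicates. Single days were taken to vary like the triplicates. Tests were two-sided with Benjamini-Hochberg adjustment over all kept probes, and rose and fell mark an adjusted p below 0.05. The fit was also run on simulated data with independent noise, no set effect and the same spread on all days. That run therefore does not bear on the sets or on the spread of single days. Genes were named by the platform annotation, and a gene was read by its kept probe with the highest mean.

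Members and lists were chosen with earlier results of these data known. Named genes were all probes of the members, list genes that passed at day 7 with at least a 2-fold change (otherwise the 2 with the largest change), and the 5 genes of nearest pattern. The alternatives were other background corrections, scalings and filters, gene summaries, blocks, array weights and arrays left out. Python 3.11.15 and matplotlib 3.10.9 drew the figures. The number of arrays limits the precision of every value.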

Additional observations from a re-analysis of the deposited data

How the results depend on the processing

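Against hypoxic cells Mmp14 kept its direction under every alternative tried and lost its call in 2, at day 7 under other sample names and on days 4 to 6 within set a. Under the names of the processed value table, day 7 changes were −0.63 for Mmp14, 0.99 for Mmp2 and −0.35 for Timp2, and the adjusted p was 0.998 for each. Within set a, at day 7, Mmp2 changed by 0.82 and Timp2 by −0.73, and on days 4 to 6 the changes were −1.22 for Mmp14, 1.13 for Mmp2 and −0.71 for Timp2 (limma adjusted p = 0.0556, 0.0531 and 0.134), without passing. With the set as a block, Mmp2 on days 4 to 6 against days 1 to 3 was 1.04. With a common median of probes detected on all arrays, Timp2 was −0.27 at day 7 and 0.25 for day 7 against days 4 to 6. Timp2 on days 1 to 3 passed at −0.34 without background correction and with normexp at offset 50, and at −0.35 over probes detected on all 12 arrays, and on days 4 to 6 against days 1 to 3 at −0.38 without background correction. The cause was not tested. Leaving out 1 array at a time gave, against hypoxic cells at day 7, −1.54 to −1.40 for Mmp14, 1.04 to 1.26 for Mmp2 and −0.81 to −0.68 for Timp2, all passing. On days 1 to 3 it gave −0.07 to 0.44 for Mmp2 (−0.07 without day 3) and −0.51 to −0.25 for Timp2, which passed without day 1. For day 7 against days 4 to 6 it gave −0.10 to 0.07 for Timp2, above 0 without day 5 (0.07) or day 7 replicate 2 (0.05), and −0.58 to 0.00 for Mmp2. The Mmp2 to Timp2 difference over normoxic arrays was 1.39 to 1.67, with an exact permutation p of 0.0727 without hypoxic replicate 1. Probes passing on days 4 to 6 against days 1 to 3 numbered 1988, and 3405 without background correction. For day 7 against days 4 to 6 they numbered 1118, and 2903 without background correction, 2370 with normexp at offset 50, 3242 and 1815 under the common-median scalings and 2302 over probes detected on all 12 arrays. Of 458 recalculations over the 22 named list genes, 429 left the call as it was, 28 lost it, and 1 reversed (Mmp24, −0.06 with a common median). Under the names of the processed value table no gene of any list passed, so many of the lost calls come from that alternative. A fit of only the day 7 and hypoxic arrays repeats the main fit, since single arrays add no spread. Within set a, the median day 7 change of the tail and traffic genes was −0.44, as in all arrays. That of the regulators was −0.26, against −0.16 in all arrays. Counts passing are not compared there, since set a holds 1 hypoxic array. Replicate numbers did not pair the arrays, with correlations of 0.01, −0.01 and 0.05 between deviations of same-numbered hypoxic and day 7 arrays. With the replicate block the day 7 changes were −1.48, 1.13 and −0.74 (limma adjusted p = 0.00123, 0.00457 and 0.0089). A fit of days 4 to 6 and days 1 to 3 alone was not possible, since no replicate is left to give a spread. The main limits are the single probe per gene, the single array per early day, and the conflict between deposited sample names.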
